A study of Mus musculus with 28 samples.

Results

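The imprinted Meg3 noncoding RNA cluster was followed in mouse liver through 4 genes, Meg3, Rian, Mirg and Dlk1, out of 18193 genes that could be represented by a probe set. All 19 probe sets annotated to these genes were kept, of 45037 probe sets in all: 11 for Meg3, 4 for Rian, 2 for Mirg and 2 for Dlk1. For each gene the lead probe set was the one of highest mean over all 28 arrays. The genes were selected on these data, because Meg3 was higher with ethanol in wild-type mice, so the wild-type comparison of ethanol with control is given as a description with no test.

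The mice were C3H/HeN females, either wild-type or CAR deficient (lacking the constitutive androstane receptor, the nuclear receptor encoded by Nr1i3, on the same C3H/HeN background). By the paper they were 5 weeks of age when acclimation began, which lasted 1 week before the diets. The livers were collected later, after the diets. Each was fed Lieber's liquid diet for 1 week ad libitum and then for 4 weeks at 12 g per day. The diet held water (control), ethanol (EtOH), ethanol with ellagic acid (EtOH plus EA) or ethanol with trans-resveratrol (EtOH plus RSV), with a polyphenol intake near 50 mg per kg per day. By the paper's diet formula the ethanol diets held less maltose and dextrin than control. Ethanol and lower carbohydrate thus cannot be told apart in comparisons with control. Total liver RNA of 1 mouse was hybridized to each Affymetrix array, with 4 wild-type and 3 CAR-deficient arrays per diet. How the receptor allele was made is not given in the labels, and nothing in them says whether mice of a diet shared a cage.

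Meg3 is a long noncoding RNA transcribed from the maternal chromosome only. It lies in an imprinted domain on mouse chromosome 12, where an intergenic methylated region keeps the noncoding genes silent on the paternal copy. Rian, which carries C/D box small nucleolar RNAs in its introns, and Mirg, which hosts a long row of microRNAs, follow on the same strand and share its parental origin. Dlk1, upstream, is expressed from the paternal copy and encodes a membrane protein related to Notch ligands that is abundant in fetal liver and hepatoblasts. The small RNAs themselves were not measured here.

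A pair of RefSeq windows of 300 bases, from 250 bases before the start of the transcript to 50 after it, are shown because Meg3 and Rian are the members whose signal varied. The Meg3 window is chr12:109540746-109541045 and the Rian window chr12:109603695-109603994, both on the plus strand of GRCm38.p6, which is the sequence of another mouse strain. Capitals mark matches on either strand to the cAMP response element TGACGTCA and to TATAAA.
Meg3: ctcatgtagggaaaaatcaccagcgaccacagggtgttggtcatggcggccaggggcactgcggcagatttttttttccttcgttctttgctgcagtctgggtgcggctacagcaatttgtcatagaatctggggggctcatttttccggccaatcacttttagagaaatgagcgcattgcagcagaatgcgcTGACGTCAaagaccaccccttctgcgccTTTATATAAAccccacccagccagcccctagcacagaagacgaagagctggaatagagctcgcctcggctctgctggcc
Rian: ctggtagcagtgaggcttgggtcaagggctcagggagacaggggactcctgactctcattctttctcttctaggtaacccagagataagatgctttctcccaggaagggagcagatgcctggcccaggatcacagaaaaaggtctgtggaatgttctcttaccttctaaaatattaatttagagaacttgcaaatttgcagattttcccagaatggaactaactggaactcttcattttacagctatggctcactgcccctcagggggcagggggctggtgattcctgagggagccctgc
The Meg3 window shown held the response element at -57 and TATAAA at -29 and -25, which overlap on opposite strands, with 53.7% GC and 13 CpG. Another annotated Meg3 window, chr12:109545148-109545447, is not shown and held neither motif, 50.3% GC and 1 CpG. The Rian window held neither motif, 49.3% GC and 0 CpG. Over 32851 such windows of the mouse annotation, 1.79% held TGACGTCA and 13.6% held TATAAA. These letters are a description of the reference, and binding and methylation were not measured.

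The values are log2 values summarised by Distribution Free Weighting (DFW), a method that weights probes by their variability and can shrink the scale of a probe set. Differences are therefore given in DFW units and cannot be read as folds. The genotypes were summarised apart, so the levels of the genotypes are not on a shared scale and no difference between them was tested. A probe set whose standard deviation (SD) over the arrays of a genotype was at most 0.01 is called compressed, as were 85.3% of all probe sets in wild-type and 79.3% in CAR-deficient mice. Of the 19 probe sets, 6 were uncompressed in wild-type mice and 5 in CAR-deficient mice. The uncompressed ones were Meg3 1439380_x_at, 1452183_a_at, 1452905_at and 1426758_s_at and Rian 1452899_at in both genotypes, and Meg3 1436713_s_at in wild-type mice only (SD 0.25, against 0.00335 in CAR-deficient mice). The other 6 Meg3 probe sets, the other 3 of Rian and all of Mirg and Dlk1 were compressed in both genotypes. Their SDs ran from 9.1e-05 to 0.000549.

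**Figure D1:**
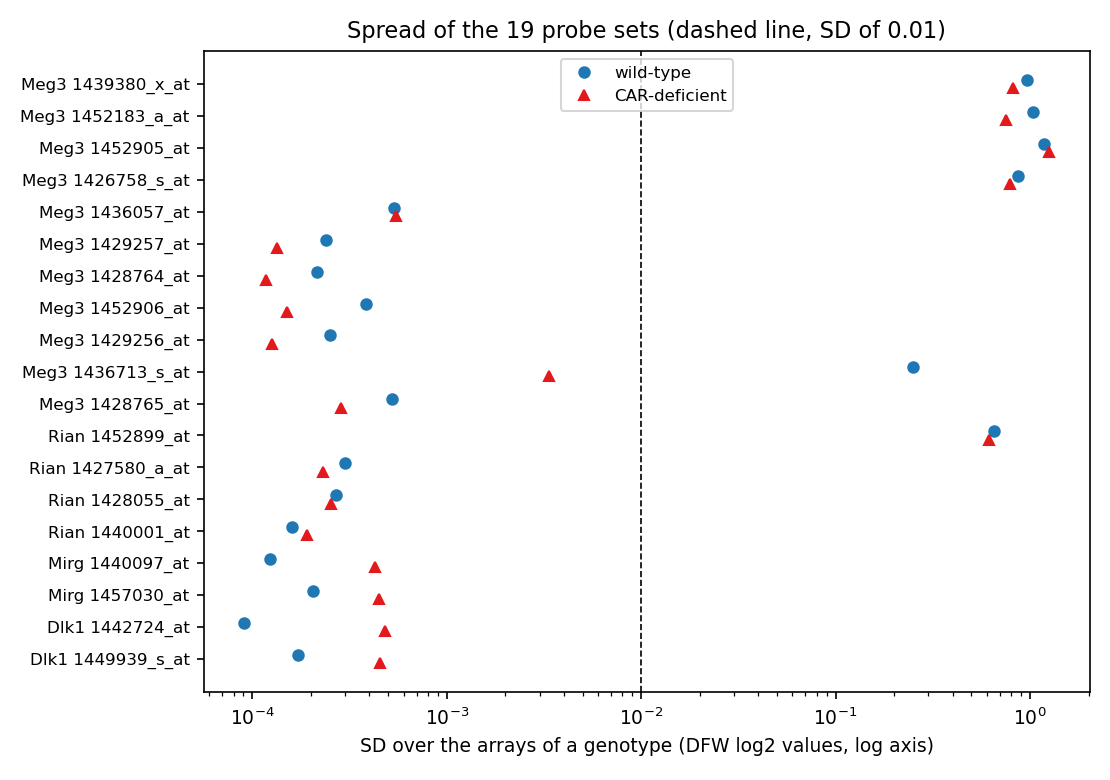
SD of the DFW log2 values of each of the 19 probe sets over the 16 wild-type arrays (circles) and the 12 CAR-deficient arrays (triangles), on a log axis, with the limit of 0.01 as a dashed line. Of the 19 probe sets, 6 lie to the right of the line in wild-type mice and 5 in CAR-deficient mice, and none of these belongs to Mirg or Dlk1.

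In wild-type liver the Meg3 level was lowest on the control diet, intermediate with ethanol and highest with either polyphenol. The lead probe set 1439380_x_at had DFW values of 7.059, 7.001, 7.013 and 7.228 on the 4 control arrays and of 7.89, 8.43, 8.13 and 8.68 on the EtOH arrays. All EtOH arrays lay above all control arrays. The share of all probe sets that separate in this way was not counted in wild-type mice, here or below. In this comparison 41.0% of the uncompressed probe sets had an unadjusted p under 0.05 by limma. The EtOH plus EA arrays gave 9.27, 8.43, 9.77 and 9.12, and the EtOH plus RSV arrays 9.66, 9.62, 8.23 and 8.92. Each polyphenol group overlapped the EtOH group through its lowest array, and none of their arrays reached down to the control values. The mean was 7.08 ± 0.10 for control, 8.28 ± 0.34 for EtOH, 9.15 ± 0.55 for EtOH plus EA and 9.11 ± 0.67 for EtOH plus RSV (SD, n = 4). The spread within a diet was smallest in the control group.

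The difference of Meg3 between EtOH and control, on which the gene was chosen, was 1.21 (standard error 0.33). It ranked 20 from the top of 6633 uncompressed probe sets, and 5.55% of all 45037 probe sets passed the threshold in that comparison. The threshold throughout is an adjusted p of 0.05 by limma, with adjustment over all probe sets. EtOH plus EA exceeded control by 2.07 and EtOH plus RSV exceeded control by 2.03 (standard error 0.33 for both). EtOH plus EA exceeded EtOH by 0.87 and EtOH plus RSV exceeded it by 0.83, with overlap of the arrays. By limma none of the 19 probe sets passed in either, where 2.37% (EtOH plus EA) and 0.364% (EtOH plus RSV) of all did. An unadjusted p under 0.05 was found for 5 and 7 of the 19, beside 15% of all in both. The rank product called 6 of the 19 in each, beside 5.61% and 4.37% of all. Of these 6, 5 were of Meg3 and rest on arrays that chose it. These 4 comparisons share the EtOH or control arrays that chose Meg3, so no p or interval is given for it. Among the 6633, the differences from control ranked 14 (EtOH plus EA) and 13 (EtOH plus RSV).

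Ellagic acid and resveratrol can be compared on arrays that had no part in the choice. Meg3 differed by 0.04 between EtOH plus EA and EtOH plus RSV (95% interval -0.67 to 0.75, limma adjusted p = 0.98), and the sign turned when single arrays were left out. None of the 19 probe sets passed in this comparison, where 0.0244% of all probe sets did. An unadjusted p under 0.05 was found for 0 of the 19, beside 8.78% of all. The rank product, the method that the study names, called 1 of the 19, Meg3 1452183_a_at, and 3.3% of all probe sets.

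**Figure D2:**
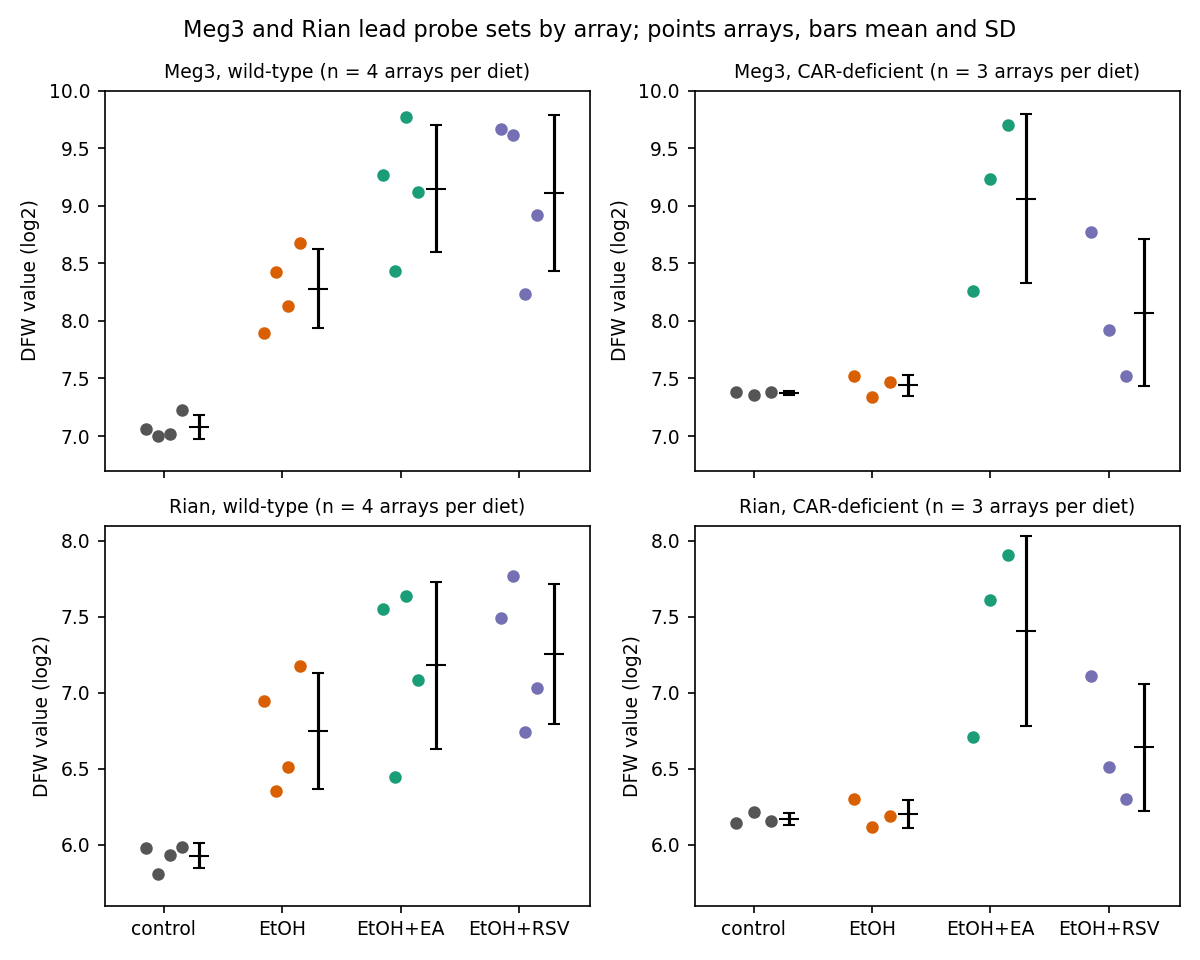
DFW log2 values of the lead probe sets of Meg3 (top) and Rian (bottom) by diet in wild-type (left) and CAR-deficient mice (right); each point is an array, and the bar at its side gives the mean and SD. In wild-type mice the EtOH arrays of Meg3 lie between 7.89 and 8.68, all above control, and in CAR-deficient mice they lie between 7.34 and 7.52, 1 below and 2 above the control arrays at 7.35 to 7.38.

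The 4 other uncompressed Meg3 probe sets gave the same order of control, EtOH and polyphenol diets in wild-type mice. Probe set 1452183_a_at had a mean of 6.60 ± 0.06 on control, 7.96 ± 0.35 on EtOH, 8.85 ± 0.58 on EtOH plus EA and 8.80 ± 0.68 on EtOH plus RSV (SD, n = 4). Probe set 1452905_at covered the widest span, from 6.20 ± 0.12 on control to 8.73 ± 0.82 on EtOH plus RSV. Probe set 1426758_s_at went from 6.30 ± 0.06 to 8.16 ± 0.52 on EtOH plus EA. For these 3 the EtOH arrays did not overlap the control arrays, again with no share over all probe sets counted. For 1436713_s_at, the dimmest, these groups overlapped. Control gave 5.93 to 6.11, EtOH 6.05 to 6.19, EtOH plus EA 6.28 to 6.72 and EtOH plus RSV 6.16 to 6.67. The difference of EtOH from control was then 0.09 (standard error 0.12), and EtOH plus EA lay above EtOH on every array. The order of the diets was thus shared, and the size of each difference depended on the probe set. The 6 compressed Meg3 probe sets varied by far less. Of these, 1436057_at had the same order in its means, 7.0255 on control, 7.0263 on EtOH and 7.0266 on either polyphenol diet. For 1429257_at the mean was 7.0242 on control and EtOH and 7.0244 on either polyphenol diet. Among all 19 probe sets, 5 compressed ones passed as higher with EtOH plus EA against control and 6 with EtOH plus RSV. Of all probe sets 14.2% and 19.7% passed there, and the Meg3 calls rest on arrays that chose the gene.

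Rian followed Meg3 in wild-type mice. Its lead probe set 1452899_at had values of 5.98, 5.81, 5.94 and 5.99 on control and 6.94, 6.36, 6.51 and 7.18 on EtOH. With EtOH plus EA they were 7.55, 6.44, 7.64 and 7.09, and with EtOH plus RSV 7.49, 7.77, 6.74 and 7.03. All arrays of the 3 ethanol diets lay above all control arrays, and the 3 ethanol diets overlapped each other. How many of all probe sets separate from control in this way was not counted. Rian was 0.82 higher on EtOH than on control (standard error 0.28, no test, since these arrays chose the set). It rose with EtOH plus EA against control by 1.25 (standard error 0.28, limma adjusted p = 0.012) and with EtOH plus RSV against control by 1.33 (standard error 0.28, limma adjusted p = 0.0074). The control arrays are those that chose Meg3, which Rian tracks across arrays, so these p-values are not independent of the choice. Both calls held in all 16 alternatives of each comparison, with adjusted p up to 0.038 and 0.025. The alternatives reuse the control arrays that chose Meg3, so they share that limit. Of the uncompressed probe sets 41.9% passed with EtOH plus EA and 44.8% with EtOH plus RSV, and Rian ranked 43 and 33 from the top of 6633 in size.

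Against EtOH, Rian did not pass. EtOH plus EA differed from EtOH by 0.43 (95% interval -0.18 to 1.05, limma adjusted p = 0.55) and EtOH plus RSV by 0.51 (95% interval -0.10 to 1.12, limma adjusted p = 0.43). Leaving out 1 array moved these to 0.28 (without EA replicate 3) or 0.68 (without EA replicate 2), and to 0.34 (without RSV replicate 2) or 0.68 (without RSV replicate 3). The rank product called both, beside 5.61% and 4.37% of all probe sets. Between the polyphenols the difference was -0.08 (95% interval -0.69 to 0.54, limma adjusted p = 0.96).

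No change of a size that can be read was seen for Mirg, Dlk1 or the other 3 Rian probe sets, whose differences stayed at or under 0.000889 in size over all comparisons of both genotypes. Mirg 1440097_at had a mean of 6.95 with an SD of 0.000123 over the 16 wild-type arrays, and Dlk1 1449939_s_at a mean of 6.33 with an SD of 0.000171. Of the 8 probe sets of Rian, Mirg and Dlk1, 2 passed with EtOH plus EA against control, where 14.2% of all probe sets passed. With EtOH plus RSV against control 3 of 8 passed, where 19.7% of all did. Besides the Rian lead these were compressed: Rian 1427580_a_at, higher by 0.00053 with EA and 0.000622 with RSV, and Mirg 1440097_at, higher by 0.000245 with RSV (limma adjusted p = 0.021). By limma no Dlk1 probe set passed in any comparison of either genotype. Against EtOH none of the 8 passed with EA or with RSV by limma (2.37% and 0.364% of all probe sets). There 0 and 2 had an unadjusted p under 0.05, beside 15% of all in both. The rank product called 1, the Rian lead, in each, beside 5.61% and 4.37% of all.

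One CAR-deficient array stood apart. EtOH replicate 1 had a median correlation of 0.983 with the other 11 arrays, where the others had 0.989 to 0.994. It also had the highest Cyp2b10, a cytochrome P450 known as a CAR target, at 10.15 (1425645_s_at), against 7.20 and 8.09 on the other CAR-deficient EtOH arrays and 6.05 to 6.26 on control. Its Meg3 value was 7.52, against 7.34 and 7.47 on the other EtOH arrays. Without this array Meg3 differed between EtOH and control by 0.03 (limma adjusted p = 0.99), and EtOH plus EA exceeded EtOH by 1.66 (limma adjusted p = 0.58) and EtOH plus RSV exceeded it by 0.67 (limma adjusted p = 1.0). The Rian difference between EtOH and control turned to -0.02. Nr1i3 itself read 8.55 to 9.49 over the CAR-deficient arrays (1425392_a_at). In the wild-type arrays, which are on a scale of their own, it read 8.96 to 10.1. Where this probe set lies relative to the deleted part is not given in the sources used here, so it does not check the labels.

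The CAR-deficient arrays had no part in the choice of the genes. On these, Meg3 was close to control on the EtOH arrays, 1 of them below and 2 above all control arrays, and the EtOH plus EA arrays lay above both groups, by a difference that did not pass by limma. Its lead probe set gave 7.38, 7.35 and 7.38 on control and 7.52, 7.34 and 7.47 on EtOH, and these groups overlapped. The EtOH plus EA arrays gave 8.26, 9.23 and 9.70, each above every control and EtOH array. The EtOH plus RSV arrays gave 8.77, 7.92 and 7.52, of which the lowest and the highest EtOH array agree to 2 decimals. The means were 7.37 ± 0.02, 7.44 ± 0.09, 9.06 ± 0.73 and 8.07 ± 0.64 (SD, n = 3).

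With EtOH against control, Meg3 differed by 0.07 (95% interval -0.82 to 0.96, limma adjusted p = 0.97). In wild-type mice it was 1.21. The genotypes were summarised apart, and the difference between them was not tested. In the same comparison 0.344% of all 45011 probe sets passed and 0 of the 19. Without adjustment 1 of the 19 had a p under 0.05, beside 12.4% of all probe sets. Same-numbered arrays of these diets shared deviations, and with the replicate number as a block 0.0267% of all probe sets passed, again with 0 of the 19. The rank product also called none of the 19, and 1.88% of all probe sets.

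With EtOH plus EA against control, Meg3 was 1.69 higher (95% interval 0.80 to 2.58, limma adjusted p = 0.14). The difference ranked 18 of 9300 uncompressed probe sets but did not pass. None of the 19 did by limma, where 0.18% of all probe sets passed. An unadjusted p under 0.05 was found for 7, beside 11.7% of all. All 5 uncompressed probe sets of Meg3 and Rian were higher on EtOH plus EA without overlap of the arrays, where 18.2% of the uncompressed probe sets had that pattern. Meg3 passed when the adjustment ran over uncompressed probe sets alone (limma adjusted p = 0.034) and by the rank product. Each of these called 5 of the 19, beside 3.92% of the uncompressed and 2.96% of all probe sets. The limit on SD uses the spread over all diets, which holds the diet differences, so it is not independent of that test. The 5 are 4 Meg3 probe sets and the Rian lead, which vary together, so they are not 5 separate results. The limma adjusted p over the alternatives went as high as 0.35. Against EtOH, EtOH plus EA gave a Meg3 difference of 1.62 (95% interval 0.73 to 2.51, limma adjusted p = 0.41), rank 11 of 9300, where limma called 0.0% of all probe sets. Here 9 of the 19 had an unadjusted p under 0.05, beside 8.5% of all. The rank product again called 5 of the 19, beside 0.578% of all. The 5 uncompressed probe sets were without overlap here too (7.15% of uncompressed probe sets were).

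The values with resveratrol lay between those of EtOH and EtOH plus EA. EtOH plus RSV exceeded control by 0.70 (95% interval -0.19 to 1.59, limma adjusted p = 0.62) and EtOH by 0.63 (95% interval -0.26 to 1.52, limma adjusted p = 0.93), with 0.06% and 0.0% of all probe sets called. Without RSV replicate 1, the highest array, these were 0.35 and 0.28. Of the 5 uncompressed probe sets, 5 lay above control without overlap (15.8% of uncompressed probe sets did) and 3 above EtOH (3.43% did). The lowest EtOH plus RSV array barely cleared the highest EtOH array for the Meg3 lead (7.521 against 7.5192) and for Rian (6.3032 against 6.3005). The probe sets vary together, so these are not separate results. By limma 0 of the 19 passed in either, with 1 and 3 at an unadjusted p under 0.05, beside 10.3% and 5.46% of all. The rank product called 5 of the 19 against control (2.2% of all) and 1, Meg3 1452905_at, against EtOH (0.167% of all). EtOH plus EA exceeded EtOH plus RSV by 0.99 (95% interval 0.10 to 1.88, limma adjusted p = 1.0). The groups overlapped, and limma called 0.0% of all probe sets. Here 4 of the 19 had an unadjusted p under 0.05, beside 2.99% of all. The rank product called 5 of the 19, beside 0.104% of all. The difference ranked 6 of 9300. The order on CAR-deficient arrays was control, EtOH, EtOH plus RSV and EtOH plus EA, and by limma no neighbours in it differed beyond the threshold.

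The 3 other uncompressed Meg3 probe sets had the same order in CAR-deficient mice. Probe set 1452905_at had the widest span of means, from 6.23 ± 0.20 on control and 6.64 ± 0.38 on EtOH to 7.66 ± 0.97 on EtOH plus RSV and 8.94 ± 1.05 on EtOH plus EA (SD, n = 3). Its difference of EtOH plus EA from control was 2.71 (limma adjusted p = 0.13). Probe set 1452183_a_at gave 1.51 (limma adjusted p = 0.17) and 1426758_s_at 1.60 (limma adjusted p = 0.16) in that comparison. None passed.

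Rian in CAR-deficient mice gave 6.15, 6.22 and 6.16 on control and 6.30, 6.12 and 6.19 on EtOH. With EtOH plus EA it gave 6.71, 7.61 and 7.91, and with EtOH plus RSV 7.11, 6.51 and 6.30. The array highest in Meg3 was highest in Rian within both polyphenol diets. EtOH plus EA exceeded control by 1.24 (95% interval 0.54 to 1.93, limma adjusted p = 0.16) and EtOH by 1.20 (95% interval 0.51 to 1.90, limma adjusted p = 0.41). EtOH differed from control by 0.03 (95% interval -0.66 to 0.72, limma adjusted p = 0.98). Mirg and Dlk1 were again compressed, and Dlk1 1449939_s_at had a mean of 6.62 with an SD of 0.000453.

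**Figure D3:**
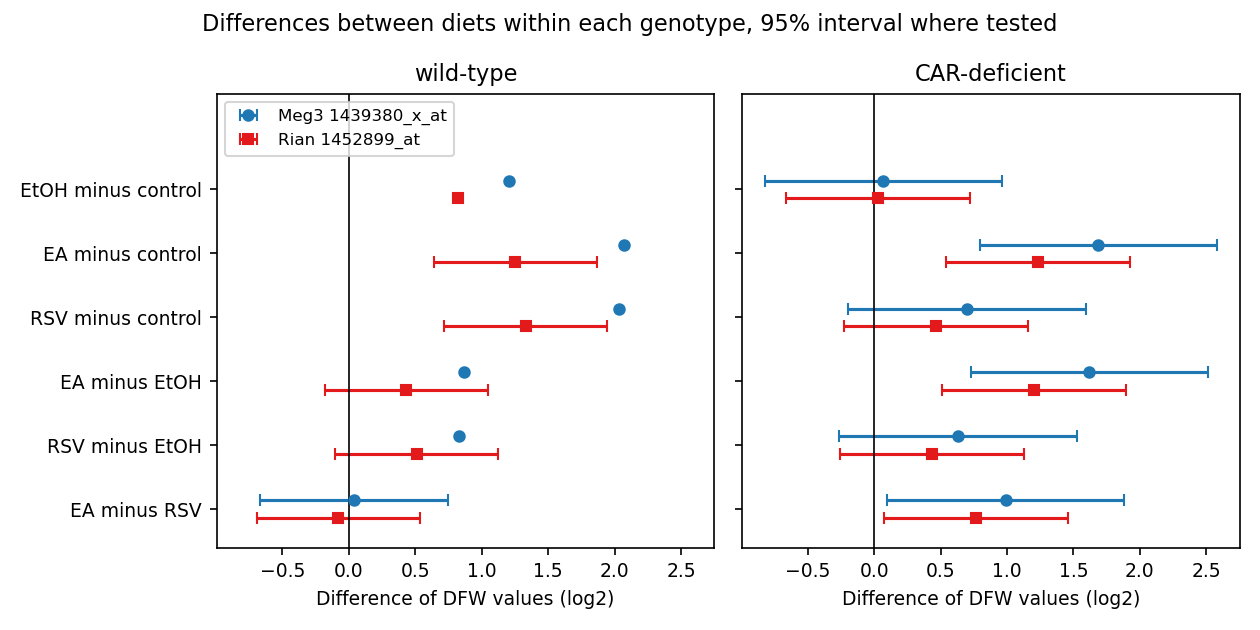
Differences between diets of the lead probe sets of Meg3 (circles) and Rian (squares), in DFW log2 values, with 95% intervals from limma where a test is given, in wild-type (left, 4 arrays per diet) and CAR-deficient mice (right, 3 arrays per diet); EA and RSV stand for ethanol plus that polyphenol. EtOH minus control of Meg3 is 1.21 in wild-type mice and 0.07 in CAR-deficient mice, and EA minus control is 2.07 and 1.69.

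Meg3 and Rian varied together from array to array, also within a diet. Over the 16 wild-type arrays the lead probe sets had a Pearson's r of 0.939 and a Spearman's rho of 0.924, and an r of 0.798 once the mean of each diet was removed. Over the 12 CAR-deficient arrays these were 0.996, 0.951 and 0.986. The points share RNA extract and array, and the wild-type values fall apart by diet, so the r over all diets partly repeats the diet differences. Rian was the 6th most like Meg3 of 3856 genes with an uncompressed lead probe set in wild-type mice and the first of 5174 in CAR-deficient mice. The 4 other uncompressed Meg3 probe sets had an r of 0.913 to 0.998 with the lead in wild-type mice.

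**Figure D4:**
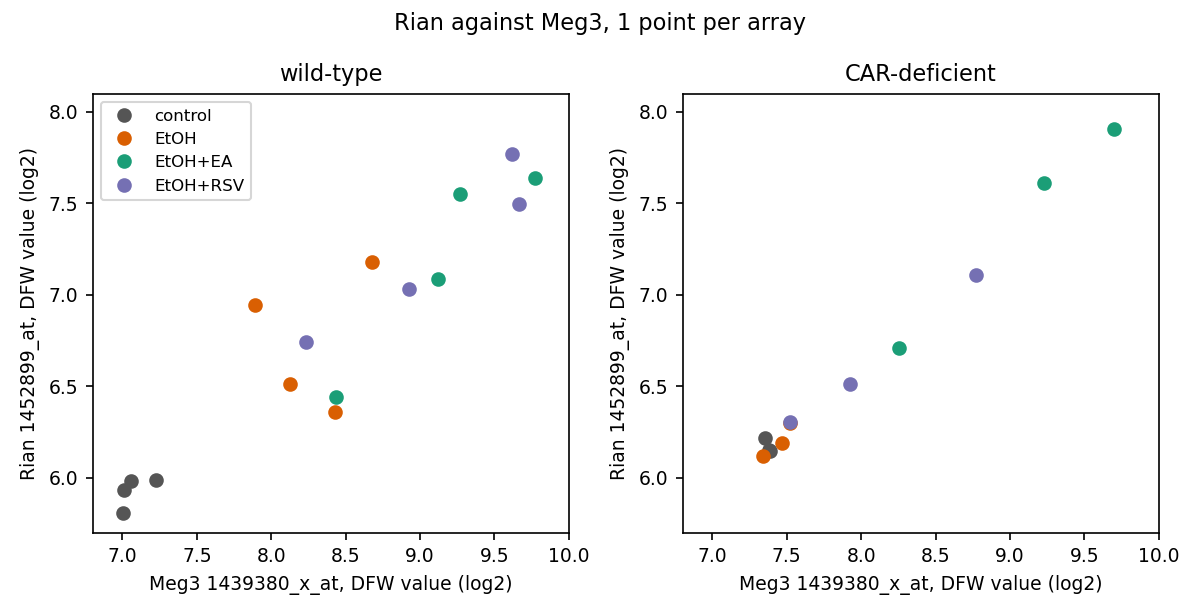
DFW log2 value of Rian (1452899_at) against that of Meg3 (1439380_x_at), 1 point per array, coloured by diet, in 16 wild-type (left) and 12 CAR-deficient arrays (right). The CAR-deficient control and EtOH arrays lie together at the lower left, and the polyphenol arrays are strung out along a line (r = 0.996).

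Outside the cluster, the genes most like Meg3 in wild-type mice were Cyp4f15 (r = 0.952), Cyp2c54 (0.948), both cytochromes P450, Cyb5a (0.948), the cytochrome b5 that passes electrons to such enzymes, Fchsd2 (0.944) and Rhbg (0.944), an ammonium transporter. In CAR-deficient mice they were Tmem120a (0.939), Spns2 (0.927), a sphingosine phosphate transporter, Klf1 (0.923), an erythroid transcription factor, Sephs2 (0.913), an enzyme of selenium metabolism, and Nsun3 (0.911). No gene was on both lists. These r values span all diets, so they partly repeat the diet differences. With the mean of each diet removed, r was 0.754 (Cyp4f15) to 0.854 (Cyb5a) for the wild-type genes. For the CAR-deficient genes it was 0.673 (Sephs2) to 0.936 (Klf1), and none of these was among the 5 highest on that basis. The 5 wild-type genes had an r of 0.393 (Cyp4f15) to 0.766 (Cyp2c54) over the CAR-deficient arrays, and the 5 CAR-deficient genes an r of 0.536 (Spns2) to 0.875 (Tmem120a) over the wild-type arrays.

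The other genes of the imprinted domain gave little to set beside Meg3 and Rian. Of Begain, Rtl1, Dio3 and Dio3os, only Dio3os could be matched to a probe set. It was compressed in wild-type mice, where it passed as higher by 0.000449 with EtOH plus EA (limma adjusted p = 0.024) and by 0.000533 with EtOH plus RSV (limma adjusted p = 0.0089) against control. In CAR-deficient mice it differed by 0.38 between EtOH plus EA and control (standard error 0.23, limma adjusted p = 0.61). Of 15 measured genes that flank the domain, 2 were higher and 1 was lower with EtOH than with control in wild-type mice, 0 and 2 with EtOH plus EA, and 1 and 3 with EtOH plus RSV, where 7.04%, 18.0% and 23.8% of all genes passed. The 2 higher with EtOH were Hsp90aa1, a cytosolic chaperone (0.54, limma adjusted p = 0.031), and Ppp2r5c, a phosphatase subunit (0.20, limma adjusted p = 0.021). With EtOH plus RSV, Yy1, a zinc finger transcription factor, was lower by 0.33 (limma adjusted p = 0.039). The other lower calls, of Cinp and Tecpr2, were compressed. With EtOH the median difference of the 5 uncompressed flanking genes was -0.05, beside -0.04 over all 3857 uncompressed genes.

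Imprinted genes outside the domain were called both ways in wild-type mice, in numbers not far from the share of all genes. With EtOH against control 3 of 40 measured were higher and 1 lower, with EtOH plus EA 5 and 3, and with EtOH plus RSV 8 and 3. Of all genes 7.04%, 18.0% and 23.8% passed there. Slc22a18, a transporter, was higher by 0.33, 0.31 and 0.31 in the 3 comparisons, and Mcts2, a retrogene, was lower by 0.21, 0.32 and 0.32. The median over the 8 uncompressed ones was 0.15 with EtOH, 0.16 with EtOH plus EA and 0.10 with EtOH plus RSV. No uncompressed gene called on this or the following lists changed sign after quantile normalization. In CAR-deficient mice none of the 40 passed in any comparison. For the 3 diets against control 7, 8 and 8 had an unadjusted p under 0.05, beside 12.4%, 11.7% and 10.3% of all probe sets.

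Among 22 genes that set or keep imprints, 2 were lower and 0 higher with EtOH against control, 4 and 0 with EtOH plus EA, and 9 and 1 with EtOH plus RSV in wild-type mice. Of all genes 7.04%, 18.0% and 23.8% passed, so the counts with EtOH and with EtOH plus EA were near that share. The lower genes included the DNA methyltransferase Dnmt3b (-0.15, limma adjusted p = 0.012 with EtOH) and Arid4a (-0.24, limma adjusted p = 0.037 with EtOH). With EtOH plus EA, Ctcf, the insulator protein, was lower by 0.42 (limma adjusted p = 0.0089). With EtOH plus RSV, Arid4b was lower by 0.52 (limma adjusted p = 0.0039). The median of the 9 uncompressed genes was -0.15, -0.17 and -0.20 in the 3 comparisons, beside -0.04, -0.05 and -0.06 over all uncompressed genes. In CAR-deficient mice 0 of 22 passed, with 4, 4 and 2 at an unadjusted p under 0.05, beside 12.4%, 11.7% and 10.3% of all probe sets.

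Genes of the Notch pathway, to which Dlk1 is related, gave 0 higher and 2 lower of 19 with EtOH against control, 2 and 3 with EtOH plus EA, and 2 and 5 with EtOH plus RSV, not far from the 7.04%, 18.0% and 23.8% of all genes. The sheddase Adam10 was lower in all 3 (by 0.26, 0.26 and 0.28), and the ligand Jag1 was lower with EtOH plus RSV by 0.71 (limma adjusted p = 0.011). Of 19 measured p53 targets, a group named because MEG3 is known to act on p53, 1 was higher and 0 lower with EtOH and 2 were higher and 3 lower with each polyphenol diet. Bbc3, a mediator of apoptosis, was higher in all 3 (0.19, 0.15 and 0.22), and Trp53inp1 was lower with EtOH plus EA by 0.81 (limma adjusted p = 0.013). All 9 measured genes of fetal liver, where Dlk1 and Meg3 are known to be high, were compressed in wild-type mice, so no size is given for them.

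The RNA came from whole liver, so fewer cells of a type and less RNA per cell cannot be told apart. Hepatocyte markers were high throughout (mean of 7 uncompressed genes 12.76 to 13.18 in wild-type mice). The wild-type counts that follow stand beside 7.04%, 18.0% and 23.8% of all genes with the 3 ethanol diets against control. With EtOH against control, 21.4% of all probe sets had an unadjusted p under 0.05 in wild-type and 12.4% in CAR-deficient mice. Stellate cell markers averaged 9.15 to 9.25 on control and 9.20 to 9.34 on EtOH over 8 uncompressed genes, with 0 of 13 passing (4 at an unadjusted p under 0.05, and 2 of the 8 higher after quantile normalization), then 3 higher with EtOH plus EA and 4 higher and 2 lower with EtOH plus RSV. Markers of sinusoidal endothelium gave 1 higher and 1 lower of 12 with EtOH, 4 higher with EtOH plus EA and 1 each way with EtOH plus RSV. Of 12 Kupffer cell markers 8, 9 and 8 were lower with the 3 ethanol diets than with control and 0, 1 and 1 higher, and their mean over 8 uncompressed genes was 9.13 to 9.30 on control and 8.89 to 9.05 on EtOH. In CAR-deficient mice that mean, over 10 uncompressed genes, was 9.06 to 9.31 on EtOH and 9.34 to 9.59 on control. There 0 of 12 passed, with 8 at an unadjusted p under 0.05. Markers of bile duct cells and lymphocytes were compressed in wild-type mice. Cela1, the one uncompressed marker of pancreatic acinar cells, was lower than control by 0.54, 0.59 and 0.40. Alas2, the one uncompressed red cell marker, was 9.70 to 10.1 on CAR-deficient control arrays and 7.38 to 8.95 over the other diets. The part of these cell types in the Meg3 values was not tested.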

How the data were processed

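Total liver RNA of 28 mice was measured on Affymetrix mouse genome arrays. The deposited values are log2 values that the authors obtained in R with DFW, run once on the wild-type and once on the CAR-deficient arrays. No further normalization was applied. Of 45101 probe sets, 64 Affymetrix controls were set aside, and 26 blank in CAR-deficient mice were left out there. Genes were named from the platform annotation: 34945 probe sets name 1 gene, 932 several and 9160 none. Titles gave the group and replicate number of each array (wild-type EtOH arrays are numbered 1, 3, 4 and 5).

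Tests between diets used limma 3.58.1 in R 4.3.3, with 1 fit (lmFit, then eBayes) of the 4 diets per genotype. Adjusted p-values (Benjamini-Hochberg) were taken over every probe set tested, and 0.05 was the threshold. Summaries were made with Python 3.11.15, and the code was tested on simulated data. The members, gene lists and tests were chosen with earlier results of these data known. Named are the members with all probe sets, the domain genes and list genes that passed in the comparison discussed (at most 4 a list, by size), the 5 genes most correlated with the lead Meg3 probe set in each genotype, Nr1i3 and Cyp2b10. The alternatives were quantile normalization, a filter at the median level, uncompressed probe sets alone, only the 2 diets compared, a replicate block, no moderation, the mean of all probe sets of a gene, the rank product with 50 permutations, and leaving out each array in turn. Same-numbered arrays shared deviations (every r over 0.1) only in EtOH plus EA against control of wild-type mice (0.157 to 0.568) and in EtOH against control of CAR-deficient mice (0.288 to 0.41). Labels do not say what a number marks. The number of arrays limits the precision.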

Additional observations from a re-analysis of the deposited data

How the results depend on the processing

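The Meg3 and Rian lead differences kept their direction in every alternative that used all arrays. Leaving out 1 array turned the sign only where the difference was near 0: EtOH plus EA against EtOH plus RSV in wild-type mice ranged from -0.25 to 0.28 for Meg3 and from -0.25 to 0.17 for Rian, and EtOH against control in CAR-deficient mice from -0.017 to 0.074 for Rian (below 0 without EtOH replicate 1). The arrays whose absence turned the sign were EA replicates 1 and 3 and RSV replicates 3 and 4 for Meg3, and EA replicate 2 and RSV replicates 1 and 2 for Rian. The mean over all 11 Meg3 probe sets, 6 of them compressed, gave smaller wild-type differences: 0.47 for EtOH, 0.83 for EtOH plus EA and 0.82 for EtOH plus RSV against control, and 0.36 and 0.35 for EtOH plus EA and EtOH plus RSV against EtOH. For Rian it gave 0.21 with EtOH against control. In CAR-deficient mice the Meg3 mean gave 0.68 and 0.32 for EtOH plus EA and EtOH plus RSV against control, and 0.62 and 0.26 against EtOH. Without CAR-deficient RSV replicate 1 the Rian differences of EtOH plus RSV from control and from EtOH were 0.24 and 0.20, against 0.47 and 0.44 with all arrays.

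In CAR-deficient mice the Meg3 difference passed by the rank product with EtOH plus EA against control (1.69), against EtOH (1.62) and against EtOH plus RSV (0.99) and with EtOH plus RSV against control (0.70), and over uncompressed probe sets alone with EtOH plus EA against control. Of the 19 probe sets the rank product then called 5, 5, 5 and 5, and 1 with EtOH plus RSV against EtOH, where limma called 0. Its shares of all probe sets in these comparisons were 2.96%, 0.578%, 0.104%, 2.2% and 0.167%. Of the 8 probe sets of Rian, Mirg and Dlk1 in wild-type mice, the 2 called with EtOH plus EA against control became 4 after quantile normalization, 1 above the median level, 1 over uncompressed probe sets and 1 by the rank product, and 1 to 3 without 1 array (1 without control replicate 4 or EA replicate 1 or 3). The 3 called with EtOH plus RSV became 1 over uncompressed probe sets and 1 by the rank product, and 2 to 5 without 1 array (5 without RSV replicate 3). The rank product also called 1 of 8 with EtOH plus EA and 1 with EtOH plus RSV against EtOH, and 1 of 19 between the polyphenols. It called 5.61%, 4.37% and 3.3% of all probe sets there.

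Over all probe sets, quantile normalization called 33.8%, 53.7% and 55.5% with EtOH, EtOH plus EA and EtOH plus RSV against control in wild-type mice. The share of these calls that were higher went from 39.6%, 42.7% and 46.0% to 77.2%, 60.7% and 69.1%, and from 42.7% to 85.2% with EtOH plus RSV against EtOH. With the replicate number as a block, the calls with EtOH against control in CAR-deficient mice went from 0.344% to 0.0267% of all probe sets, the Meg3 difference of EtOH plus EA from control stayed at 1.69, and the block changed no call of the Meg3 or Rian lead.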
